A study of Rattus norvegicus with 33 samples.

Results

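The genes described here are 9 lymphoid-organizing chemokines, cytokines and receptors: the chemokines Cxcl13 and Ccl19 with their receptors Cxcr5 and Ccr7, the lymphotoxins Ltb and Lta, the B cell survival factor Tnfsf13b with its receptor Tnfrsf13c, and the receptor Tnfrsf14. They were read from the named probes of these genes on an Agilent array, and the set was chosen with earlier results of these data known. They are 9 of 23345 genes tested, a count in which each probe without a gene name stands as its own gene. The array carried 12 probes for them, and the brighter probe stood for a gene that had several. All 9 passed the filter on dim probes, which asks that 3 or more of the 33 arrays read a probe well above background.

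RNA was measured in 33 prostate samples of male Sprague-Dawley (Hsd:SD) rats, 1 single-colour array per sample. The EB groups were injected with estradiol benzoate, an ester of estradiol that acts for days, on postnatal days (PND) 1, 3 and 5 (2.5 mg/kg, subcutaneous), and the other groups with vehicle. From PND 90 the T+E and EB+T+E groups carried silastic implants with testosterone and estradiol, and the EB and control groups of PND 100 and PND 145 carried empty ones. At PND 30 there were 4 EB and 4 control samples. At PND 100 there were 3 EB, 3 T+E, 3 EB+T+E and 3 control samples, and at PND 145 there were 4 EB, 3 T+E, 3 EB+T+E and 3 control samples. All dams and pups ate a low phytoestrogen chow, so the controls shared that diet. The sample labels name the prostate and the series title names the dorsolateral prostate, so the lobes are not settled here. The labels give 3 to 4 litters per group but do not tie arrays to litters, and p-values measure only the spread between these samples.

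In lymph nodes and Peyer's patches, lymphotoxin made by lymphocytes acts on stromal cells through the lymphotoxin beta receptor, and those cells then make CXCL13, CCL19 and CCL21. CXCL13 draws B cells that carry CXCR5 into follicles, while CCL19 and CCL21 draw T cells and dendritic cells that carry CCR7 into the zones around them. BAFF, the product of Tnfsf13b, keeps B cells alive through the BAFF receptor, the product of Tnfrsf13c. The same genes are known from lymphoid aggregates that form in inflamed organs, the prostate among them.

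Sequence before the start of the gene, 250 bases on the coding strand, was held for 6 of the 9 genes in RefSeq promoters of rat build GRCr8. The 5 windows below are shown because they hold a motif that was searched for. The capitals mark TATAAA in Cxcl13 (chr14:13917921-13918170, minus strand), a pair of GAAA in Ccl19 (chr5:61761165-61761414, minus strand) and Tnfsf13b (chr16:86194500-86194749, minus strand), and a kappa B motif in Ltb (chr20:3634055-3634304, minus strand). In Lta (chr20:3623277-3623526, plus strand) they mark TATAAA and 2 overlapping kappa B matches.
Cxcl13: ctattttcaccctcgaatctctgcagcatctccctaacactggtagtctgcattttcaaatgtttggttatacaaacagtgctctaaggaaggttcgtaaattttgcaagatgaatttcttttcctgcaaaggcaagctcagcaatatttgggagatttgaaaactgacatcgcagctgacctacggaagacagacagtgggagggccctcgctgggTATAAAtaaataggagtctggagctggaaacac
Ccl19: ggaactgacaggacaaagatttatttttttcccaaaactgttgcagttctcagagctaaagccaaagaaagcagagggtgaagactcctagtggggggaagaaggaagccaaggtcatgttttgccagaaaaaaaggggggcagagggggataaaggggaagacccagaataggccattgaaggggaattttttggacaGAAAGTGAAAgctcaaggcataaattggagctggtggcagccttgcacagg
Ltb: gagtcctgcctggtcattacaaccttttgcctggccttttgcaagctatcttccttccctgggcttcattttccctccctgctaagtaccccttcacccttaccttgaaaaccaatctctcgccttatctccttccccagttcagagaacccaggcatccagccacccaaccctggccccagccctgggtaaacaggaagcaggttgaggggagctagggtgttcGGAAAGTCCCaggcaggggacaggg
Lta: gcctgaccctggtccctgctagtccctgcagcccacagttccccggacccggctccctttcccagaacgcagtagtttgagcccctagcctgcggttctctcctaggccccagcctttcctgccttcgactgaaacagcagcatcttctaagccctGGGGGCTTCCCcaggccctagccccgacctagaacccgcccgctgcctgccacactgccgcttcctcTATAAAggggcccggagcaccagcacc
Tnfsf13b: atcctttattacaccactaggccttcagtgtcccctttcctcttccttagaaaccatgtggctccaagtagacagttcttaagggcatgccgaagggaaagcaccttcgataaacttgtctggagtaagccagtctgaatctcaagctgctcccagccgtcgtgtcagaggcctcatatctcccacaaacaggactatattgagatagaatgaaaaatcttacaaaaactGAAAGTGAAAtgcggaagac

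TATAAA, searched on the coding strand only, began 33 bases before the start of Cxcl13 and 27 bases before that of Lta, and 8.06% of 33469 promoter windows held it. The kappa B motif, the binding pattern of NF-kappa B, was searched on both strands. It lay 25 bases before the start of Ltb on the opposite strand and 94 bases before the start of Lta, and 6.33% of windows held it. GAAA followed after 2 free bases by GAAA, the pattern of interferon regulatory factors, was searched on both strands and began 51 bases before the start of Ccl19 and 20 bases before that of Tnfsf13b, against 3.41% of windows. The estrogen response element, GGTCA and TGACC set apart by 3 free bases and searched on both strands, was in 8 of the windows and in 0 of the 6 for these genes. A match is a string of letters and not a shown binding site. The window of Tnfrsf13c held none of the 4 motifs. Cxcr5, Ccr7 and Tnfrsf14 had no window.

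Values are given as levels, a probe's log2 signal less that of the 75th percentile of its array. Levels compare samples for 1 gene, not genes with each other. A ratio is the log2 difference between the means of 2 groups with its standard error (SE), from limma fitted over all genes and arrays, with Benjamini-Hochberg adjusted p called at 0.05. On the arrays 61.5% to 68.9% of 58717 spots were well above background. Control replicate 2 of PND 145 stood apart, with a summed spermatid marker level of 34.0 times the 75th percentile against 0.146 and 0.620 on the other control arrays of that age, and with the highest seminal vesicle products. Control replicate 3 of PND 100 was highest in seminal vesicle products at its age. RNA came from whole tissue pieces, so fewer cells of a type and less RNA per cell cannot be told apart. As a check of the tissue label, all 8 luminal prostate epithelium markers were well above background on every adult array.

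Each of the 9 genes had its highest group mean in EB+T+E prostates of PND 145. For Cxcl13 and Ltb the arrays of that group lay above all those of the group with the next highest mean, while for the other 7 the ranges overlapped. Ltb did overlap with EB of PND 100, whose highest array was at 1.30 against -0.08 on the lowest EB+T+E array of PND 145. The next group was EB+T+E of PND 100 for Cxcl13 and Ccl19, control of PND 30 for Ltb, and EB of PND 100 for the other 6.

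**Figure D1:**
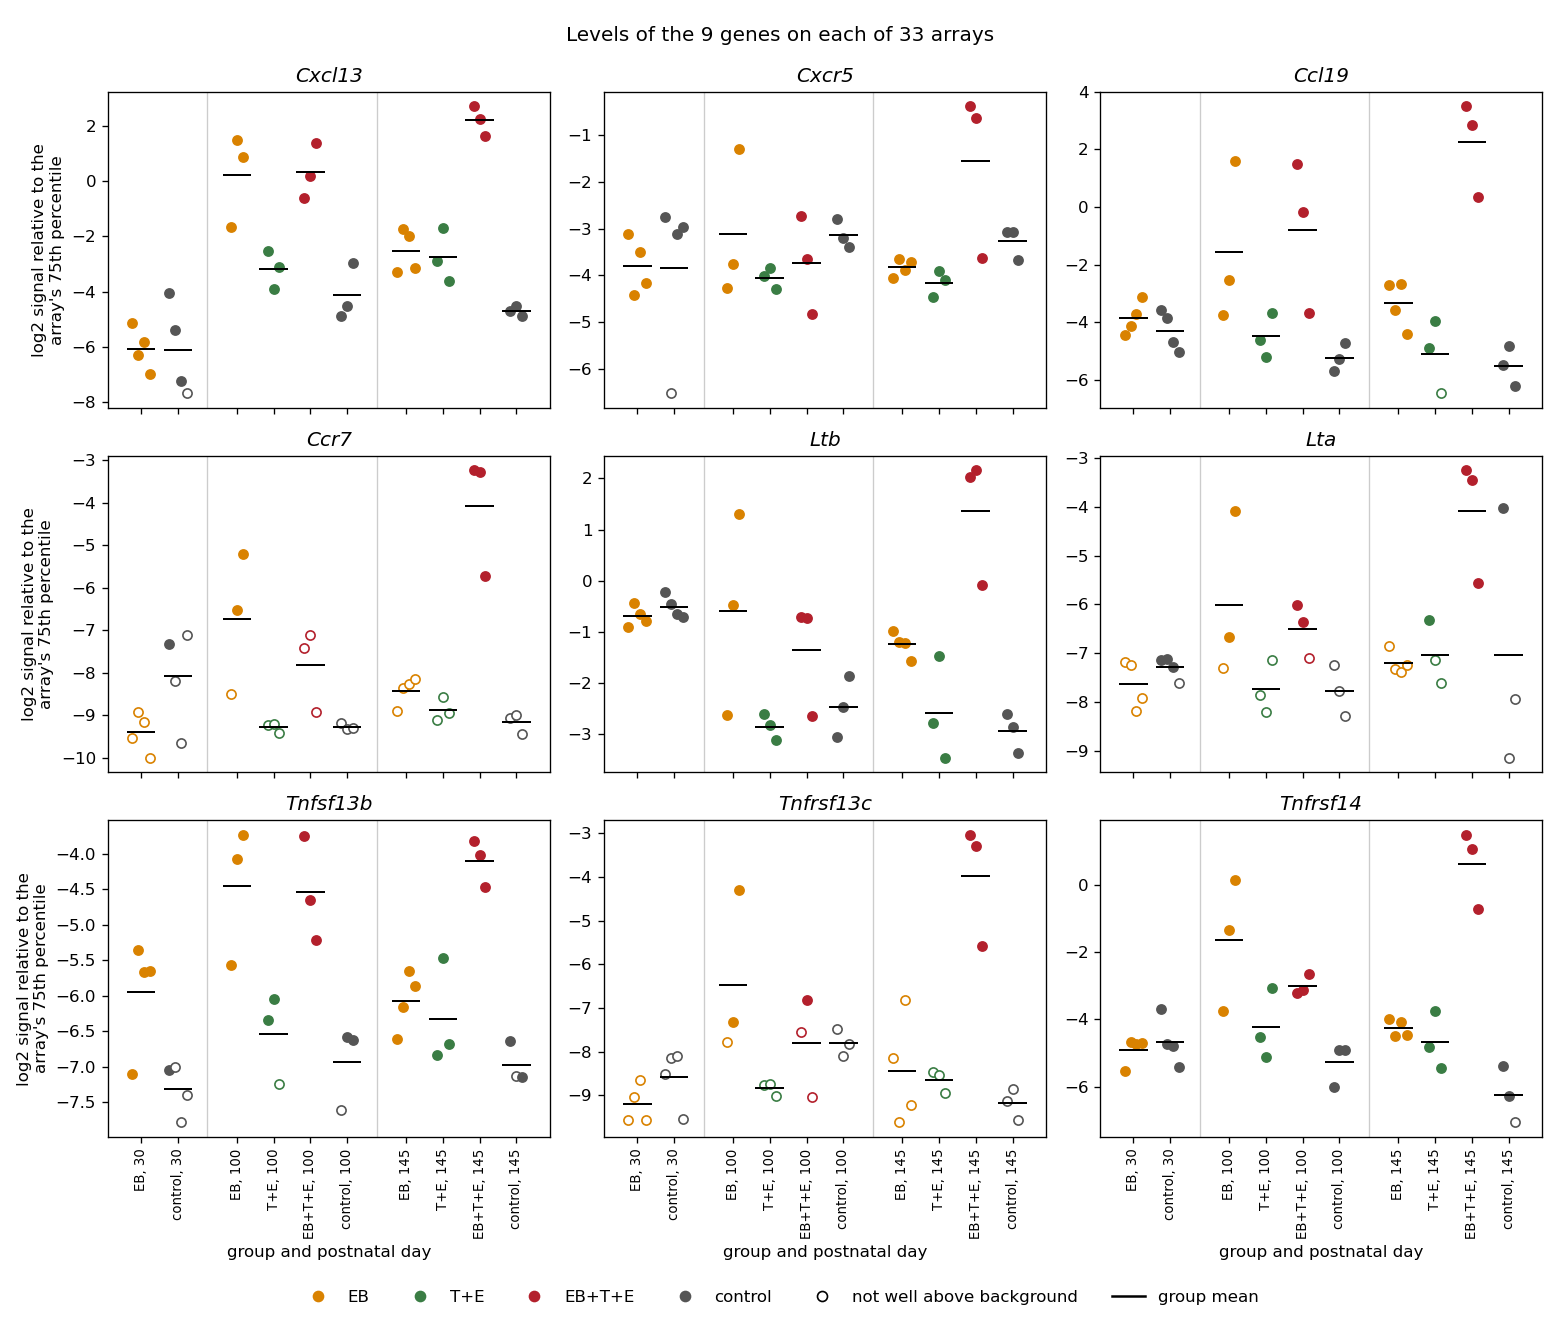
Level of each gene on each of 33 arrays (log2 signal relative to the array's 75th percentile), by group and postnatal day. Points are arrays, open points are not well above background and bars are group means, with EB+T+E of PND 145 holding the highest mean in all 9 panels.

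Cxcl13, the B cell attracting chemokine, had levels of -5.14, -6.27, -5.82 and -6.98 in EB prostates of PND 30, against -4.05, -5.40, -7.23 and -7.67 in control prostates, the last not well above background. Its PND 100 levels were -1.67, 1.47 and 0.88 in EB, -2.51, -3.89 and -3.09 in T+E, and -0.60, 0.17 and 1.38 in EB+T+E prostates, against -4.89, -4.52 and -2.96 in controls. At PND 145 they were -3.29, -1.72, -1.97 and -3.14 in EB, -2.88, -1.69 and -3.62 in T+E, and 2.72, 2.25 and 1.63 in EB+T+E prostates, against -4.71, -4.52 and -4.89 in controls. At PND 145 every array of the 3 hormone groups lay above every control array, with the EB+T+E arrays far above the rest. Cxcl13 rose in EB+T+E prostates over control by 6.90 ± 0.81 at PND 145 (adjusted p = 1.89e-06, 120-fold) and by 4.44 ± 0.81 at PND 100 (adjusted p = 0.00165, 21.7-fold). It also rose in EB prostates of PND 100, by 4.35 ± 0.81 (adjusted p = 0.0101, 20.4-fold). The ratio in EB prostates of PND 145, 2.17 ± 0.76, did not pass (adjusted p = 0.172), nor did that in T+E prostates of that age, 1.98 ± 0.81 (adjusted p = 0.374). Within the 2 slides that held EB+T+E and control arrays of PND 145, the differences were 6.52 and 6.77.

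Cxcr5, the receptor of CXCL13 on B cells and follicular helper T cells, was read by 2 probes that did not agree. The first 30 bases of each are printed to tell them apart, at rn4 positions on the minus strand as the files give them, chr8:47483699-47483758 for the brighter and chr8:47485148-47485207 for the dimmer probe.
A_44_P1108180: tacagtacaggctgcacagagacccccgga
A_64_P119981: tctctctgagtcagagaacgctacttctct
The brighter probe was well above background on 32 arrays. Its levels at PND 145 were -0.39, -0.65 and -3.62 in EB+T+E prostates, against -3.07, -3.07 and -3.67 in controls, and lay between -4.47 and -3.64 in the EB and T+E prostates. So replicates 1 and 2 of EB+T+E stood out, and replicate 3 lay within the control range. The dimmer probe was well above background on 2 arrays only, those same replicates, at -6.83 and -7.27. At PND 100 the brighter probe gave -4.27, -3.75 and -1.30 in EB, between -4.28 and -3.85 in T+E, and -2.74, -3.65 and -4.83 in EB+T+E prostates, against -2.80, -3.20 and -3.39 in controls. At PND 30 it ranged from -4.42 to -3.12 in EB prostates, and from -6.51 to -2.74 in control prostates. The ratio of EB+T+E over control at PND 145 was 1.72 ± 0.81 and did not pass (adjusted p = 0.0972). Without EB+T+E replicate 3 it was 2.75 and passed (adjusted p = 0.00967).

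Ccl19, the chemokine of T cell zones, had levels of -4.45, -4.14, -3.72 and -3.11 in EB prostates of PND 30, against -3.58, -3.87, -4.70 and -5.04 in controls. Its PND 100 levels were -3.74, -2.53 and 1.61 in EB, -4.62, -5.21 and -3.67 in T+E, and 1.48, -0.17 and -3.67 in EB+T+E prostates, against -5.68, -5.28 and -4.74 in controls. At PND 145 they were -2.71, -3.57, -2.68 and -4.41 in EB, -4.92, -3.98 and -6.48 in T+E (the last not well above background), and 3.51, 2.86 and 0.36 in EB+T+E prostates, against -5.51, -4.85 and -6.23 in controls. The EB and EB+T+E groups of PND 100 were wide, with 1 and 2 arrays far above the rest. EB+T+E prostates rose over control by 7.77 ± 1.08 at PND 145 (adjusted p = 1.03e-05, 219-fold) and by 4.45 ± 1.08 at PND 100 (adjusted p = 0.00857, 21.8-fold). Without EB+T+E replicate 1 the PND 100 ratio was 3.31 and did not pass (adjusted p = 0.100). The ratio of EB over control at PND 100 was 3.69 ± 1.08 and did not pass (adjusted p = 0.0573).

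Ccr7, which guides T cells and mature dendritic cells toward CCL19 and CCL21, was well above background on 6 arrays of 33. These were the 3 EB+T+E arrays of PND 145 at -3.24, -3.28 and -5.73, EB replicates 2 and 3 of PND 100 at -6.53 and -5.21, and 1 control array of PND 30 at -7.33. The 6 control arrays of PND 100 and PND 145 lay between -9.44 and -9.0, none well above background. Ccr7 rose in EB+T+E prostates of PND 145 at least 12.1-fold over control (means -4.08 in EB+T+E and -9.17 in control prostates, adjusted p = 8.64e-06). Such a bound takes, for each dim array, the probe's own signal or the faintest one well above background, whichever is greater. In EB prostates of PND 100 it rose at least 2.10-fold (means -6.74 in EB and -9.27 in control prostates, adjusted p = 0.0472). That call was lost without any 1 of 5 arrays, the 3 controls and EB replicates 2 and 3 (adjusted p = 0.0920 to 0.448), with the replicate block (adjusted p = 0.0593) and with normexp background correction (0.25).

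Ltb, the membrane lymphotoxin chain that stays on the lymphocyte surface, was well above background on all 33 arrays. Its levels at PND 30 were -0.91, -0.43, -0.65 and -0.78 in EB prostates, against -0.21, -0.46, -0.66 and -0.70 in controls. At PND 100 they were -2.62, -0.48 and 1.30 in EB, -2.61, -2.82 and -3.12 in T+E, and -0.71, -0.72 and -2.64 in EB+T+E prostates, against -3.05, -2.47 and -1.87 in controls. At PND 145 they were -0.98, -1.19, -1.21 and -1.57 in EB, -2.79, -1.48 and -3.46 in T+E, and 2.03, 2.15 and -0.08 in EB+T+E prostates, against -2.61, -2.85 and -3.36 in controls. All EB and EB+T+E arrays of PND 145 lay above the controls of that age. Ltb rose in EB+T+E prostates of PND 145 by 4.31 ± 0.66 (adjusted p = 3.07e-05, 19.8-fold). The ratios in EB prostates were 1.87 ± 0.66 at PND 100 (adjusted p = 0.0995) and 1.70 ± 0.62 at PND 145 (adjusted p = 0.188), and that in EB+T+E prostates of PND 100 was 1.11 ± 0.66 (adjusted p = 0.283). These 3 did not pass.

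Among the controls, Ltb levels of all 3 arrays of PND 100 lay below those of all 4 arrays of PND 30. The ratio of PND 100 over PND 30 was -1.95 ± 0.62 and did not pass (adjusted p = 0.105). Cxcl13 had a ratio of 1.97 ± 0.76 in the same comparison (adjusted p = 0.207). Of the 9 genes 0 were called with limma between control ages PND 100 and PND 30 (2 at an unadjusted p under 0.05), where 0.767% of all genes were higher and 1.47% lower. Arrays without overlap on the lower side, as for Ltb, were found for 12.3% of all genes. Between controls of PND 145 and PND 100, 0 of 9 were called with limma (0 at an unadjusted p under 0.05), as were 0% of all genes called higher.

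**Figure D2:**
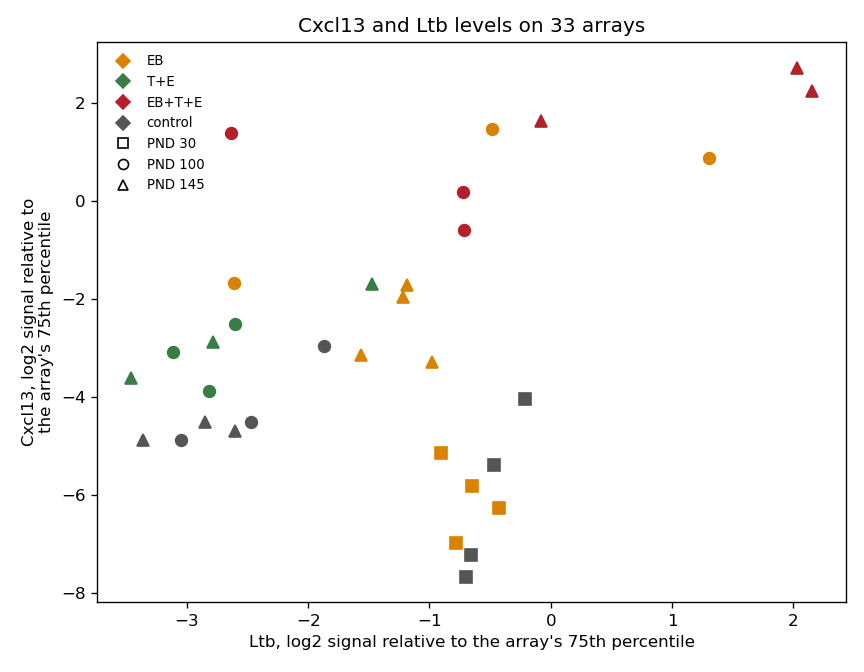
Level of Cxcl13 against that of Ltb on 33 arrays (log2 signal relative to the array's 75th percentile), coloured by group and shaped by postnatal day. The 8 arrays of PND 30 have Ltb levels of -0.91 to -0.21 with Cxcl13 at -7.67 to -4.05, while the 3 EB+T+E arrays of PND 145 have Cxcl13 at 1.63 to 2.72.

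Lta, which forms soluble lymphotoxin and pairs with Ltb on the cell surface, was well above background on 12 arrays. On the EB+T+E arrays of PND 145 its levels were -3.25, -3.44 and -5.57, against -4.03, -9.14 and -7.94 in controls, of which the first only was well above background. That control array, replicate 1, lay within the EB+T+E range. Levels at PND 100 were -7.31, -6.66 and -4.08 in EB and -6.02, -6.37 and -7.11 in EB+T+E prostates, against -7.24, -7.77 and -8.29 in controls. T+E prostates were well above background on 1 array, replicate 1 of PND 145 at -6.33, and EB prostates of PND 30 and PND 145 on none, while 3 of 4 control arrays of PND 30 were, at -7.28 to -7.13. Lta rose in EB+T+E prostates of PND 145 by 2.95 ± 0.85 (adjusted p = 0.00958), with 1 of 3 control arrays well above background, so the fold is not settled. The ratio was 1.90 without control replicate 2 (adjusted p = 0.100), 2.53 without EB+T+E replicate 1 (adjusted p = 0.0569) and 4.45 without control replicate 1. At PND 100 the ratios over control were 1.75 ± 0.85 in EB prostates (adjusted p = 0.224) and 1.27 ± 0.85 in EB+T+E prostates (adjusted p = 0.346).

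Tnfsf13b, which encodes BAFF, had levels of -7.10, -5.36, -5.66 and -5.65 in EB prostates of PND 30, against -7.04, -7.01, -7.78 and -7.39 in controls, of which only the first was well above background. Here 3 of 4 EB arrays lay above all controls, but the ratio of 1.36 ± 0.44 did not pass (adjusted p = 0.211). Levels at PND 100 were -5.56, -4.07 and -3.73 in EB, -6.34, -6.05 and -7.24 in T+E, and -3.75, -4.66 and -5.21 in EB+T+E prostates, against -7.60, -6.58 and -6.62 in controls. At PND 145 they were -6.61, -6.16, -5.65 and -5.86 in EB, -6.84, -5.47 and -6.68 in T+E, and -3.82, -4.01 and -4.47 in EB+T+E prostates, against -6.64, -7.13 and -7.14 in controls. EB and EB+T+E arrays did not overlap with controls at either adult age. Tnfsf13b rose in EB+T+E prostates by 2.87 ± 0.50 at PND 145 (adjusted p = 0.00013, 7.31-fold) and by 2.39 ± 0.50 at PND 100 (adjusted p = 0.00364, 5.25-fold). In EB prostates of PND 100 it rose by 2.48 ± 0.50 (adjusted p = 0.0186, 5.57-fold). With its dimmer probe, well above background on 5 arrays, the PND 100 ratios were 1.72 for EB+T+E (adjusted p = 0.116) and 2.01 for EB (adjusted p = 0.104).

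Tnfrsf13c, the BAFF receptor of B cells, was well above background on 6 arrays. These were the EB+T+E arrays of PND 145 at -3.03, -3.30 and -5.59, EB replicates 2 and 3 of PND 100 at -7.33 and -4.30, and EB+T+E replicate 2 of PND 100 at -6.81. All control and T+E arrays and the EB arrays of PND 30 and PND 145 were not well above background. Tnfrsf13c rose in EB+T+E prostates of PND 145 at least 13.0-fold over control (means -3.98 in EB+T+E and -9.19 in control prostates, adjusted p = 1.96e-05). The PND 100 ratio was 1.34 ± 0.77 in EB prostates (adjusted p = 0.306) and 0.01 ± 0.77 in EB+T+E prostates (adjusted p = 0.993). A dimmer probe of Tnfrsf13c, well above background on 4 arrays, gave 0.74 (adjusted p = 0.570) and 1.51 (adjusted p = 0.165), with EB+T+E replicate 1 at -6.07. Controls of PND 100 were not well above background on either probe.

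Tnfrsf14 encodes the receptor HVEM, which binds the lymphotoxin relative LIGHT and the inhibitory receptor BTLA. Its levels at PND 30 were -5.54, -4.67, -4.74 and -4.70 in EB prostates, against -3.70, -4.74, -4.81 and -5.43 in controls. At PND 100 they were -3.74, -1.34 and 0.17 in EB, -4.51, -5.11 and -3.05 in T+E, and -3.20, -3.11 and -2.66 in EB+T+E prostates, against -6.02, -4.91 and -4.90 in controls. At PND 145 they were -3.98, -4.50, -4.06 and -4.48 in EB, -4.83, -3.75 and -5.44 in T+E, and 1.5, 1.07 and -0.70 in EB+T+E prostates, against -5.38, -6.30 and -7.07 in controls, the last not well above background. Adult EB and EB+T+E arrays lay above their controls throughout. Tnfrsf14 rose in EB+T+E prostates by 6.87 ± 0.71 at PND 145 (adjusted p = 4.16e-07, 117-fold) and by 2.29 ± 0.71 at PND 100 (adjusted p = 0.0330, 4.88-fold). In EB prostates of PND 100 it rose by 3.64 ± 0.71 (adjusted p = 0.0134, 12.4-fold). The call in EB+T+E prostates of PND 100 was lost without any 1 of the 6 arrays compared, with ratios of 1.91 to 2.47.

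Neonatal EB alone was followed across 3 ages against controls of the same age. The EB ratios and the EB+T+E ratios of 1 age share their control arrays. At PND 30, 0 of the 9 genes were called higher with limma (2 in either direction at an unadjusted p under 0.05, Tnfsf13b higher and Ccr7 lower), beside 0.00857% of all genes called higher. At PND 100, 4 of 9 rose, Cxcl13, Tnfrsf14, Tnfsf13b and Ccr7, beside 1.81% of all genes, and the arrays of 5 did not overlap with controls, beside 11.5% of all genes. The median ratio of the 9 was 2.48, beside -0.06 over all genes. At PND 145, 0 were called with limma (4 at an unadjusted p under 0.05), beside 0.193%. The arrays of 6 did not overlap with controls, beside 8.81%, and the median of the 9 was 0.90 beside -0.01. Of these 6, Ccr7 was well above background on 0 arrays of either group. Tnfsf13b was barely apart, with the lowest EB array at -6.61 and the highest control array at -6.64. The change of the EB ratio between ages was tested directly, and 0 of 9 were called with limma from PND 30 to PND 100 (5 at an unadjusted p under 0.05) or from PND 100 to PND 145 (1 at an unadjusted p under 0.05), beside 0.0214% and 0% of all genes called higher. For Cxcl13 these differences were 4.32 ± 1.07 (adjusted p = 0.223) and -2.18 ± 1.11 (adjusted p = 0.999). Inside slides, 17 of 18 gene and slide pairs were positive at PND 100 and 15 of 18 at PND 145. Each 18 is 9 genes on 2 slides, and genes of 1 array are not replicates. The share of positive pairs over all genes was not computed.

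The PND 100 calls for EB rested on few arrays. Replicate 3 of EB was highest for 8 of the 9 genes and replicate 1 was lowest for all 9, and without replicate 3, or without control replicate 1, 0 of the 9 were called. With only these 2 groups in the fit 0 were called, and without the control arrays highest in seminal vesicle products 2 were. The leukocyte marker Ptprc ordered the EB arrays likewise, at -2.37, -0.28 and 1.37, against -3.29, -2.77 and -2.90 in controls. The T cell markers summed to 0.925, 3.68 and 8.13 times the 75th percentile from the lowest to the highest EB array, against 0.523 to 0.701 in controls, with 2 of 7 called higher. Of the B cell markers 2 of 7 were called higher, Blk among them. Over all genes 1.81% were called higher in EB prostates of PND 100. Macrophage markers summed to 5.10 to 21.5 in EB prostates, against 2.90 to 3.84 in controls, with 3 of 6 called. Dendritic cell markers summed to 0.465 to 1.52 in EB prostates, against 0.286 to 0.337 in controls, and fibroblast markers to 32.0 to 62.5, against 14.3 to 29.1 in controls, with 1 of 6 fibroblast markers called. The part of these cells in the ratios was not tested.

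T+E implants alone, in animals without neonatal EB, gave 0 of 9 called with limma at PND 100 (0 at an unadjusted p under 0.05) and at PND 145 (2 at an unadjusted p under 0.05), beside 0.141% and 0.287% of all genes called higher. The arrays of 0 and 1 genes lay wholly above the controls at the 2 ages, beside 10.4% and 9.12% of all genes. That gene was Cxcl13 at PND 145. For Tnfrsf14 at PND 100 the ratio was 1.05 ± 0.71, with a 95% interval of -0.40 to 2.50. The medians of the 9 were 0.03 at PND 100 and 0.40 at PND 145.

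EB followed by T+E implants gave calls at both adult ages. At PND 100, 4 of 9 rose over control, Cxcl13, Ccl19, Tnfsf13b and Tnfrsf14, beside 5.41% of all genes, and 6 did not overlap with controls, beside 11.2%. Of these 6, Ccr7 was well above background on 0 arrays of either group. For Lta 0 of the 3 control arrays were well above background. Its lowest EB+T+E array, at -7.11, was not either, and the highest control array was at -7.24. The median of the 9 was 1.45, beside -0.09 over all genes. At PND 145, 8 of 9 rose, all but Cxcr5, beside 14.7% of all genes, and 7 did not overlap, beside 20.7%. Their median was 5.09, beside -0.24 over all genes. Within slides, 17 of 18 pairs were positive at PND 100 and 18 of 18 at PND 145. These too were 9 genes on 2 slides at each age, not 18 replicates, with no share over all genes computed. The count called with limma at PND 100 was 2 without EB+T+E replicate 1 and 0 with only these 2 groups in the fit. That at PND 145 was 7 to 9 with any 1 array left out and 7 without the control arrays highest in seminal vesicle products.

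**Figure D3:**
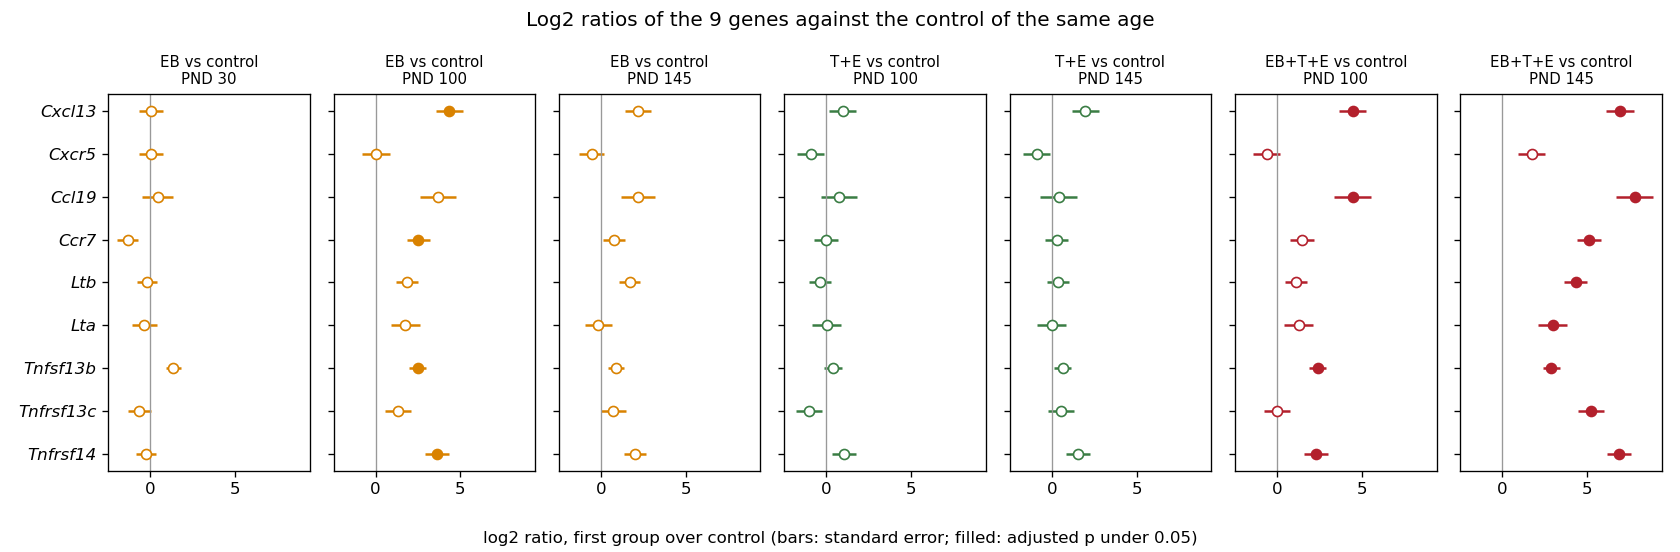
Log2 ratio of each gene over the control of the same age, in 7 comparisons, with standard errors and filled points at an adjusted p under 0.05. The EB panel of PND 100 has 4 filled points, the EB+T+E panels have 4 at PND 100 and 8 at PND 145, and the other 4 panels have none.

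EB+T+E against T+E implants alone addresses what prior EB adds. At PND 145, 9 of 9 genes rose, beside 9.69% of all genes, and the arrays of 9 did not overlap, beside 17.3%. The ratio was 7.37 ± 1.08 for Ccl19 (adjusted p = 6.64e-05), 5.30 ± 0.71 for Tnfrsf14 (adjusted p = 2.60e-05), 4.93 ± 0.81 for Cxcl13 (adjusted p = 0.000171) and 3.94 ± 0.66 for Ltb (adjusted p = 0.0002). Tnfrsf13c and Ccr7 rose at least 9.11-fold and at least 8.47-fold, with means of -3.98 and -4.08 in EB+T+E prostates, against -8.66 and -8.88 in T+E prostates. Lta, measured on 1 of 3 T+E arrays, rose by 2.94 ± 0.85 (adjusted p = 0.0152), and Tnfsf13b by 2.23 ± 0.50 (adjusted p = 0.00259) with its brighter probe and 0.92 with its dimmer one, which did not pass (adjusted p = 0.389). Cxcr5 rose by 2.61 ± 0.81 (adjusted p = 0.0225), but the call was lost with its dimmer probe (1.36, adjusted p = 0.0594) and without EB+T+E replicate 1 (2.02, adjusted p = 0.142) or 2 (2.15, adjusted p = 0.117). At PND 100, 3 of 9 rose, Cxcl13 by 3.48 ± 0.81 (adjusted p = 0.0177), Ccl19 by 3.71 ± 1.08 (adjusted p = 0.0484) and Tnfsf13b by 2.00 ± 0.50 (adjusted p = 0.0266), beside 2.66% of all genes. The arrays of 5 did not overlap, beside 9.99% of all genes. Of these 5, Ccr7 was well above background on 0 arrays of either group. Ccl19 and Lta were barely apart, with the lowest EB+T+E array at -3.6702 and -7.1063 and the highest T+E array at -3.6717 and -7.1329. For Lta 0 of the 3 T+E arrays were well above background. The count called with limma was 0 without EB+T+E replicate 1, without T+E replicate 1 or with only this pair of groups in the fit. It was 1 without T+E replicate 2 or 3.

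EB+T+E against neonatal EB alone addresses what the implants add. At PND 100, 0 of 9 were called with limma (0 at an unadjusted p under 0.05), beside 0.711% of all genes called higher, and 2 of 9 ratios were positive. For Tnfrsf14 the ratio was -1.35 ± 0.71 (adjusted p = 0.361). At PND 145, 9 of 9 rose, beside 10.6% of all genes, and 9 did not overlap, beside 13.8%. The ratio was 5.59 ± 1.01 for Ccl19 (adjusted p = 0.000342), 4.88 ± 0.66 for Tnfrsf14 (adjusted p = 2.35e-05), 4.73 ± 0.76 for Cxcl13 (adjusted p = 0.000113) and 2.61 ± 0.62 for Ltb (adjusted p = 0.00361). Lta rose at least 8.65-fold, Tnfrsf13c at least 10.7-fold and Ccr7 at least 11.1-fold. Their means were -4.09, -3.98 and -4.08 in EB+T+E prostates, against -7.20, -8.45 and -8.42 in EB prostates. Tnfsf13b rose by 1.97 ± 0.47 (adjusted p = 0.00382), though its dimmer probe gave 1.07 and did not pass (adjusted p = 0.254). Cxcr5 rose by 2.27 ± 0.76 (adjusted p = 0.0311), a call lost without EB+T+E replicate 1 (1.69, adjusted p = 0.197) or 2 (1.82, adjusted p = 0.161). The comparisons of EB+T+E share its arrays, so their counts are not independent. Within slides all 27 pairs were positive at PND 145 and 9 of 27 at PND 100. They were 9 genes on 3 slides at each age, not 27 replicates, with no share over all genes computed.

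The interaction asks whether the EB ratio differed between animals with and without implants. At PND 145 all 9 values were positive, from 1.33 ± 0.69 for Tnfsf13b to 5.18 ± 1.47 for Ccl19 (adjusted p = 0.405 and 0.0918). Of these 1 passed, Ccr7 at 4.05 ± 0.95 (adjusted p = 0.0414), beside 0.638% of all genes called higher. Its size rests on background values, since 0 of the 10 EB, T+E and control arrays of that age read Ccr7 well above background. That call was lost with the slide block, which drops EB replicate 4, with the replicate block, with normexp background correction, without a filter, and without 10 of the 13 arrays in turn. Without EB+T+E replicate 3, 5 of 9 passed. At PND 100, 0 of 9 were called with limma (1 at an unadjusted p under 0.05), as were 0% of all genes. The 1 was Tnfrsf14 at -2.40 ± 1.00 (adjusted p = 0.495).

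**Figure D4:**
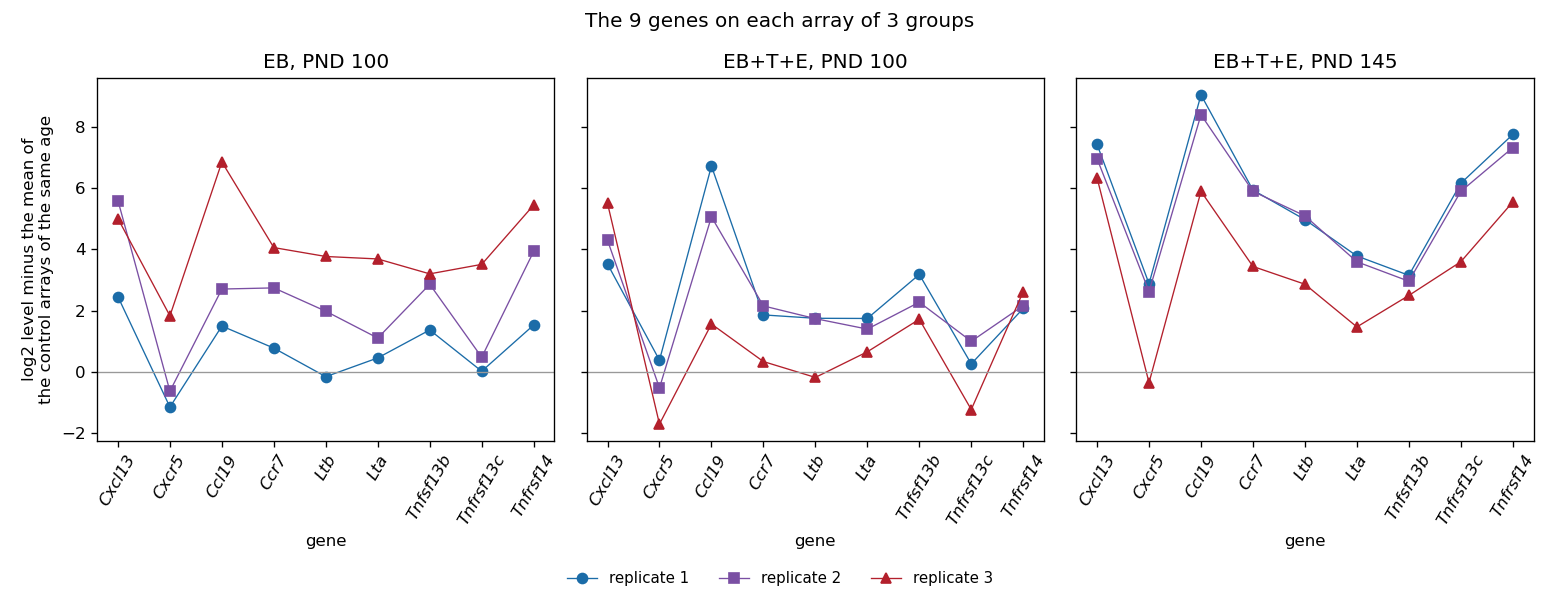
Level of each gene on each array minus the mean of the control arrays of the same age (log2), in EB of PND 100, EB+T+E of PND 100 and EB+T+E of PND 145. Lines join the genes of 1 array, and replicate 3 of EB+T+E at PND 145 and replicate 1 of EB at PND 100 are lowest for all 9 genes.

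Arrays of 1 group differed for these genes as sets. Among EB+T+E arrays of PND 145, replicate 3 was lowest for 9 of 9 genes and replicate 1 highest for 8. Among EB+T+E arrays of PND 100, replicate 3 was lowest for 7 of 9 but highest for Cxcl13 and Tnfrsf14. The 3 EB+T+E arrays of PND 145 kept the same order in Ptprc, at 2.35, 1.98 and 0.33, against -3.25, -3.73 and -4.39 in controls. The B cell gene Ms4a1, which encodes CD20, had levels of 1.28, 0.56 and -1.64 on them and was not well above background on any adult control array.

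Markers of leukocytes moved with the 9 genes in EB+T+E prostates of PND 145. Higher than in controls were 5 of 7 B cell, 4 of 5 plasma cell, 7 of 7 T cell, 6 of 6 macrophage, 5 of 5 dendritic cell and 3 of 3 neutrophil markers, and Ptprc. Beside them, 14.7% of all genes were called higher and 20.6% lower. The B cell gene Cd79a, well above background on 5 arrays, passed the filter only through the EB+T+E arrays of PND 145. With Cd22 the B cell markers summed to 24.1 to 71.0 times the 75th percentile even in T+E prostates of PND 100, so they are given without it. They summed to 0.893, 4.45 and 5.66 on the EB+T+E arrays from lowest to highest, all 6 genes well above background on each. On the control arrays they summed to 0.0790, 0.0842 and 0.108, with 1 of 6 genes well above background. The T cell markers summed to 4.62, 13.5 and 17.7 in EB+T+E prostates, against 0.420 to 0.686 in controls. Luminal epithelium markers went the other way, with 4 of 8 lower and sums of 28.8 to 72.8, against 104 to 121 in controls. All 6 fibroblast markers were higher. Their part in the ratios of the 9 genes was not tested.

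At PND 100 the macrophage markers moved with the EB+T+E ratios, all 6 being higher. Of the T cell markers 3 of 7 were called higher, and of the B cell markers 0 of 7 by limma (3 at an unadjusted p under 0.05). Beside these counts, 5.41% of all genes were called higher and 7.2% lower. The macrophage sum was 17 to 35.1 times the 75th percentile in EB+T+E prostates, against 2.90 to 3.84 in controls. The T cell sum was 1.86 to 3.05 in EB+T+E prostates, against 0.523 to 0.701 in controls. The B cell sum without Cd22 was 0.119 to 0.193 in EB+T+E prostates, against 0.0942 to 0.102 in controls. Luminal markers were lower for 4 of 8. Their part in the ratios was not tested.

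Other genes of the same pathways were read from lists chosen by function. In EB+T+E prostates of PND 145, 6 of 12 genes of the lymphotoxin and TNF axis rose over control and 2 fell. They were led by Btla, the inhibitory partner of HVEM, by 6.77 ± 0.81 (adjusted p = 2.48e-06), Tnf by 5.87 ± 0.88 (adjusted p = 2.56e-05), the TNF receptor Tnfrsf1b by 4.83 ± 0.70 (adjusted p = 1.65e-05) and Relb, a subunit of the NF-kappa B dimer downstream of lymphotoxin, by 2.67 ± 0.47 (adjusted p = 0.000126). Ltbr, the receptor of lymphotoxin, had a ratio of -0.79 ± 0.20 (adjusted p = 0.00445) and the adaptor Traf2, named after its value was seen, of -0.88 ± 0.28 (adjusted p = 0.0155), so both fell. Ltbr had levels of 1.83, 2.14 and 2.49 in EB+T+E prostates, against 2.82, 2.90 and 3.11 in controls, without overlap. Btla and Tnf were well above background on 1 of 3 control arrays. The median of all genes lay at -0.24 in this comparison, and 20.6% of all genes were called lower beside the 14.7% called higher.

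All 5 genes of the BAFF and APRIL axis rose in the same comparison. Tnfrsf17, the plasma cell receptor BCMA, rose at least 66.0-fold (means -1.64 in EB+T+E and -9.19 in control prostates, adjusted p = 4.01e-06), Tnfsf13, which encodes APRIL, by 2.10 ± 0.33 (adjusted p = 4.46e-05), and Tnfrsf13b, the receptor TACI, by 2.18 ± 0.71 (adjusted p = 0.0194). Tnfrsf17 was well above background on none of the 3 control arrays and Tnfrsf13b on 1. With only 4 arrays well above background, Tnfrsf17 passed the filter only through the EB+T+E arrays of PND 145. Its rise therefore adds no separate weight to the count. Of the lymphoid chemokine axis 8 of 12 rose and 1 fell. Ccr6 rose by 5.86 ± 0.86 (adjusted p = 1.81e-05), Cxcr4 by 4.66 ± 0.62 (adjusted p = 7.04e-06), Gpr183, which positions B cells, by 4.20 ± 0.57 (adjusted p = 8.77e-06) and Cxcl9 by 4.07 ± 0.55 (adjusted p = 8.03e-06). Ccl21, the other ligand of CCR7, had a ratio of 0.77 ± 0.88 and did not pass (adjusted p = 0.517). The gene that fell was the scavenging receptor Ackr4, with a ratio of -1.10 ± 0.42 (adjusted p = 0.0414), named after its value was seen.

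Of the list for lymphoid stroma, high endothelium and induction, 9 of 15 measured genes rose, among them the lymphocyte cytokine receptor Il7r by 4.27 ± 0.70 (adjusted p = 5.82e-05), Icam1 by 3.50 ± 0.59 (adjusted p = 7.90e-05) and Il17a by 6.34 ± 1.27 (adjusted p = 0.000518). Of the follicular dendritic cell list 4 of 6 rose, Fcgr2b by 4.39 ± 0.65 (adjusted p = 2.05e-05), Bst1 by 3.35 ± 0.52 (adjusted p = 3.44e-05), Fcer2 at least 54.0-fold (means -1.93 in EB+T+E and -9.41 in control prostates, adjusted p = 1.97e-05) and Cr2 at least 6.54-fold (means -4.97 in EB+T+E and -9.11 in control prostates, adjusted p = 0.00095). Fcer2, Fcgr2b and Cr2 are also made by B cells. Cr2 was well above background on the 3 EB+T+E arrays of PND 145, at -2.91, -5.65 and -6.36, and on EB replicate 3 of PND 100, at -3.23. Its adult controls lay between -9.40 and -8.79. Cr2 passed the filter only through the EB+T+E arrays of PND 145, so its rise adds no separate weight to the count. Of germinal centre and follicular helper T cell genes 7 of 9 rose, among them Sh2d1a by 5.28 ± 0.69 (adjusted p = 5.73e-06) and Il21r by 5.33 ± 0.87 (adjusted p = 5.66e-05). The costimulator Icos rose at least 117-fold (means -0.81 in EB+T+E and -8.59 in control prostates, adjusted p = 1.17e-06) and the inhibitory receptor Pdcd1 at least 5.76-fold (means -5.11 in EB+T+E and -8.58 in control prostates, adjusted p = 0.000187). Sh2d1a and Il17a were well above background on 1 of 3 control arrays and Il21r on 2.

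Of all genes, 1.81% were called higher in EB prostates of PND 100, and 5.41% higher and 7.2% lower in EB+T+E prostates of that age. In EB prostates over control, 2 of 12 lymphotoxin and TNF genes rose, Btla by 3.61 ± 0.81 (adjusted p = 0.0254) and Tnf by 3.49 ± 0.88 (adjusted p = 0.0365). So did 3 of 12 chemokine axis genes, Ccr6 by 3.98 ± 0.86 (adjusted p = 0.0209), Cxcr3 by 2.41 ± 0.65 (adjusted p = 0.0452) and Cxcl12 by 1.72 ± 0.46 (adjusted p = 0.0446), and 2 of 9 germinal centre genes, Icos and Sh2d1a. With limma 0 were called among the 5 BAFF and APRIL genes (2 at an unadjusted p under 0.05), the 15 stroma genes (6 at that p) and the 6 follicular dendritic cell genes (3 at that p). In EB+T+E prostates over control, 2 of 12 lymphotoxin and TNF genes rose, Tnfrsf1b by 3.36 ± 0.70 (adjusted p = 0.00328) and Tnf by 3.28 ± 0.88 (adjusted p = 0.0160), while Traf2 fell with a ratio of -0.94 ± 0.28 (adjusted p = 0.0243). Risen too were 4 of 12 chemokine axis genes, 3 of 9 germinal centre genes, among them Icos at 3.72 ± 0.87 (adjusted p = 0.00705, with 1 of 3 control arrays well above background), 2 of 6 follicular dendritic cell genes, Fcgr2b and Bst1, and 1 of 5 BAFF and APRIL genes, Tnfsf13. Of the stroma list 6 of 15 rose, led by podoplanin, Pdpn, at 2.39 ± 0.53 (adjusted p = 0.00481). At PND 30 and PND 145, EB prostates had 0 of the 59 genes of the 6 lists called with limma (3 and 13 at an unadjusted p under 0.05).

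For 1 ligand of each axis, the 5 genes most alike in level over the 33 arrays were found by Pearson correlation, given as a description since the arrays share groups. For Cxcl13 they were C1qa, C1qb, Lilra5, Ctss and Ly49s7 (r = 0.925 to 0.919, and 0.623 to 0.782 after group means were removed). C1qa and C1qb encode complement C1q and are macrophage markers here. For Ltb they were Gimap5, Gimap1, Gimap4, Egln3 and Inpp4b (r = 0.920 to 0.905, and 0.742 to 0.931 with group means removed), of which the Gimap genes are GTPases of lymphocytes. For Tnfsf13b they were Rab42, Chp2, Ticam2, Cysltr1 and Tnfrsf26 (r = 0.923 to 0.911, and 0.756 to 0.784 with group means removed).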

How the data were processed

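Spot images had been quantified by Agilent Feature Extraction 12.0.0.7, per the file headers, and the deposited signal of a spot is a linear fluorescence intensity, corrected for background on its own array and not scaled between arrays. RNA of RIN at least 8 (500 ng) was labelled with Cy3, per the labels' protocols. From it a level was computed as log2 intensity less log2 of the 75th percentile of all spots on that array. Flagged outliers (413 to 969 spots per array) were dropped and repeated spots averaged. Of 45598 probes, 30542 read well above background on 3 arrays or more and stayed in, and a gene was read by its brightest probe. Names came from a RefSeq gene table by accession (21184 probes), symbol (9060) or synonym (406), or from the files (5247). The other 9701 probes had no gene name, and each that passed the filter was counted as 1 gene. Of the genes tested, 15624 had a name that did not begin with LOC or RGD. The authors' deposited value table holds linear intensities of the same arrays, each scaled to 1 common 75th percentile of about 619, with log correlations above 0.9999 and column medians of 30.8 to 49.9, and the sources used here do not give how it was made.

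The means of 10 groups were estimated in R 4.3.3 with limma 3.58.1 (lmFit, eBayes with trend and robust), and p-values were Benjamini-Hochberg adjusted over 23345 genes in each of 17 comparisons, called at 0.05. The SE of a ratio is that of the model. Slides 1 to 4 held 8 arrays of 8 groups each and slide 5 held EB replicate 4 of PND 145, with 1 scan per slide. Alternatives were quantile scaling, normexp (offset 50), a filter of 17 arrays or none, slide or replicate number as a block, only the groups compared, the authors' table, averaging the probes of a gene, array weights, a minimum change of 2-fold and each array left out. The other probe of a gene and leaving out 2 control arrays together were alternatives chosen after seeing the data. Named were the 9 genes, up to 4 members of each list with the smallest p, and Ltbr, Ccl21, Tnf, Tnfsf13, Tnfrsf13b and Tnfrsf17. A few list genes are counted but not reported here by name. The 9 genes and the lists were chosen with earlier results of these data known. Sequences came from RefSeq (GRCr8) and probe positions from the files. The number of arrays limits the precision. Figures were drawn with matplotlib 3.10.9 in Python 3.11.15.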

Additional observations from a re-analysis of the deposited data

Results flagged for a closer look

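Of 27 gene and group pairs with 4 arrays, 2 held an array far from the others, where chance gives about 1 in 20. Cxcr5 was at -6.51 and not well above background on control replicate 2 of PND 30, while the other 3 controls lay between -3.12 and -2.74. Tnfrsf14 was at -5.54 on EB replicate 1 of PND 30, while the other 3 EB arrays lay between -4.74 and -4.67.

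The ratio of EB+T+E over T+E for Ccr7 at PND 145 exceeded that of EB over control by 4.05 ± 0.95 on the log2 scale, with limma's adjusted p = 0.0414 for the difference itself. Ccr7 was well above background on 3 of 3 EB+T+E arrays and on 0 of the 10 EB, T+E and control arrays of that age, so the size of this difference rests on background values. The call was lost with slide or replicate number as a block, with normexp, with no filter, without both control arrays highest in seminal vesicle products and without 10 of 13 arrays in turn.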

How the results depend on the processing

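Alternatives changed the number of the 9 genes called as follows. With normexp background correction, EB at PND 100 had 2 and EB+T+E over T+E at PND 100 had 1. With only the groups compared in the fit, EB over control, EB+T+E over control and EB+T+E over T+E each had 0 at PND 100, and counts were 2 for the interaction at PND 145 and 1 for controls of PND 100 over PND 30. With array weights, whose estimation stopped short of convergence, it was 1, 4, 2, 7, 9 and 2 for EB at PND 30, the change of the EB ratio from PND 30 to PND 100, EB at PND 145, EB+T+E over T+E at PND 100, the interaction at PND 145 and control ages. A filter of 17 arrays, which took Ccr7, Lta and Tnfrsf13c out of every comparison, left 5 for EB+T+E over control at PND 145. Under that filter these genes were not tested, Ccr7 in the interaction included. The interaction at PND 145 had 0 with no filter, with that filter, with slide or replicate number as a block and without the control arrays highest in seminal vesicle products. The slide block, which drops EB replicate 4 of PND 145, gave 1 for control ages. Without those 2 control arrays, an alternative chosen after seeing the data, EB at PND 100 had 2. Leaving out 1 array gave EB at PND 30 a count of 0 to 1 and EB at PND 100 one of 0 to 6. It gave 2 to 3 for EB+T+E over control at PND 100, 0 to 4 over T+E and 0 to 1 over EB at PND 100, 0 to 5 for the interaction at PND 145, 0 to 4 for the change of the EB ratio from PND 30 to PND 100, and 7 to 9 for EB+T+E over control, T+E or EB at PND 145. The cause was not tested.

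Some ratios that did not pass changed sign. Cxcr5 in EB at PND 100 was -0.13 with quantile scaling, -0.009 with the authors' table, -0.54 with array weights, -0.11 without both control arrays and -0.88 to 0.60 with 1 array left out. Cxcr5, at -0.61 in EB+T+E over control at PND 100, was 0.18 with its other probe, and -0.19 to 0.86 over T+E with 1 array left out. Tnfrsf13c in EB+T+E over control at PND 100 was -0.47 with quantile scaling and -0.48 to 0.63 with 1 array left out, and over T+E, at 1.05, it was -0.023 with normexp. Lta in EB at PND 145 was -1.21 to 1.34 with 1 array left out. Replicate numbers did not pair the arrays (correlations of deviations -0.44 to 0.46). The replicate block left 3 of 9 called for EB and 4 for EB+T+E over control at PND 100, and 8 for EB+T+E over control at PND 145. Dim signal limits Ccr7, Lta and Tnfrsf13c, which were well above background on 6, 12 and 6 arrays.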
